A study of Rattus norvegicus with 4 samples.

Results

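The pigment epithelium transport and phagocytosis genes are 10 named rat genes, found in the tables by their symbols: Best1, Ttr, Slc16a8, Slc6a20, Slc26a7, Trpm3, Mertk, Gas6, Mfge8 and Tyro3. All 10 had a value in both tables, out of 14485 gene names, and 9 of them reached 1 RPKM in at least 1 library. RNA sequencing had been done on eye and on retina of Long Evans rats of wild-type genotype, a strain with pigmented eyes, with RNA of 5 rats pooled for each library. The 4 samples are 2 technical replicates for each of the 2 tissues, and 1 column of values per tissue was analysed. Whether that column joins both technical replicates or holds 1 of them could not be told, and it is called a library here. Age, sex and mode of dissection were not given in the sources used here. All samples share the wild-type genotype, and no treatment is named. Although titles and tissue labels separate eye from retina, a further label calls every sample's material retina mRNA, and the libraries are named here after their tissue labels.

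RPKM are reads per length of gene model and per total of reads in the library, a unit inferred here from the values. Whole reads behind the values could be worked back, on totals of 28071917 reads for eye and 51944762 for retina, and the reads and intervals below come from them. With 1 pool per tissue there is no replicate check: an interval is an exact 95% interval that covers counting error only, and it compares these libraries rather than the tissues. The labels were set against marker genes. Gnat1, the alpha subunit of rod transducin, stood at 7967 RPKM in retina and 3959 in eye, and the listed lens genes made up 36.0% of the summed RPKM in eye and 0.617% in retina. Equal summed RPKM would lower every log2 ratio of eye to retina, with nothing added, by 0.64. Totals without lens genes, taken from the reads worked back, would raise it by 0.20. The lens percentages are shares of summed RPKM and not of reads.

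The retinal pigment epithelium is a single layer of pigmented cells between the photoreceptors and the choroid. It carries ions, water, lactate, retinoids and amino acids between the blood and the retina, and every day it engulfs the shed tips of photoreceptor outer segments. Shed membrane shows phosphatidylserine, which the bridging proteins Gas6, Pros1 and Mfge8 link to receptors on the epithelium. Gas6 binds the receptor tyrosine kinases Mertk, Tyro3 and Axl, and Pros1 binds Mertk and Tyro3. Mfge8 binds the integrin of the chains Itgav and Itgb5. Loss of Mertk in the Royal College of Surgeons rat blocks this uptake and leads to loss of the photoreceptors. Several of these genes are also active in other cells, among them macrophages, glia and neurons.

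Of the 6 transport genes, Ttr, Slc16a8, Slc26a7 and Slc6a20 differed by at least 2-fold with the higher value in the eye library, Trpm3 was level between the libraries, and Best1 was near the bottom of both. None of the 4 phagocytosis genes reached 2-fold, and their ratios of eye to retina ran from 0.828 to 1.22. A gene was called when log2((eye + 0.1)/(retina + 0.1)) was at least 1 or at most -1, among genes with at least 1 RPKM in either library. Of the 9 members tested, 4 were called higher, 0 lower and 5 were not called. In the background of 13259 tested genes, 17.8% were called higher and 7.95% lower. The median log2 ratio was 0.28 over the 9 members, 1.58 over the 5 transport genes tested, 0.11 over the phagocytosis genes and -0.01 over all tested genes. With equal summed RPKM the members called higher were 2 (Ttr and Slc26a7), against 11.5% of all tested genes, and 0 were lower, against 31.9%. Medians were then -0.53 over the phagocytosis genes and -0.64 over all tested genes. With 1 RPKM added to each value 3 members were higher (14.4% of all tested genes), and at a 4-fold threshold 1 was, Ttr (9.07%). The share of higher genes among all calls was 69.2% as deposited, 26.4% with equal summed RPKM and 83.9% with totals without lens genes.

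**Figure D1:**
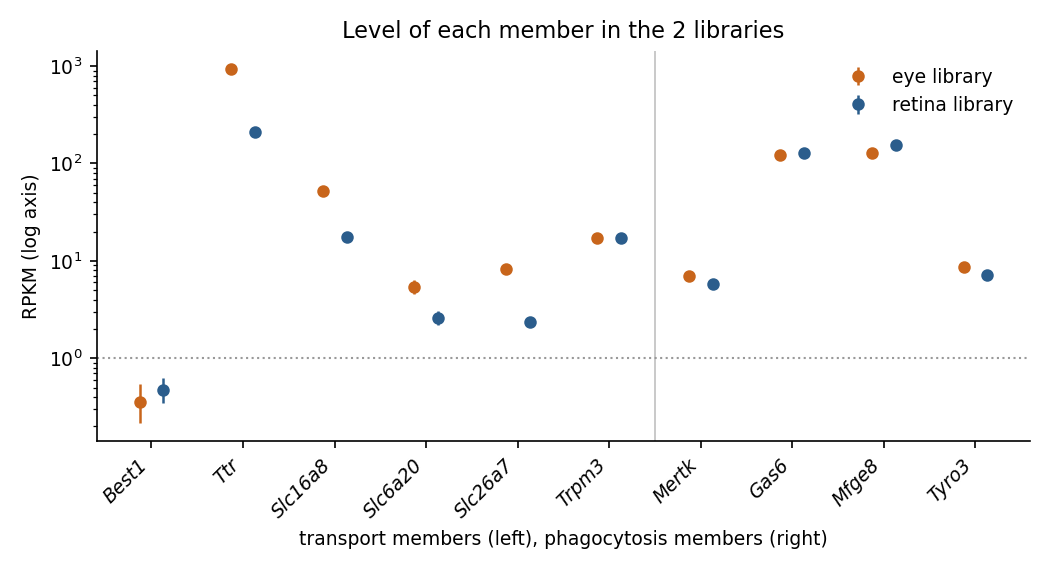
RPKM of the 10 members (log axis) in the eye library (orange) and the retina library (blue), with exact 95% counting intervals, many of them smaller than the points, and the 1 RPKM minimum as a dotted line. Ttr, at 932 and 211, lies far above Best1, at 0.355 and 0.470, and the phagocytosis genes on the right lie almost level between the libraries.

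Ttr encodes transthyretin, a carrier of thyroid hormone and of the retinol-binding protein that pigment epithelium cells make and secrete. Its value was 932 RPKM in eye and 211 in retina, on 18316 and 7661 reads. Eye was thus 4.42-fold higher (interval 4.31 to 4.54), the widest difference among the members. In both libraries Ttr was the most abundant member, at percentile 99.8 of all gene values in eye and 99.0 in retina. Rbp4, which encodes the retinol-binding protein itself, stood at only 13.5 and 4.40 RPKM, so that Ttr exceeded it 69.0 times in eye (interval 61.1 to 78.3) and 47.9 times in retina (40.9 to 56.4). Stra6, the receptor that takes up retinol from this carrier, was 3.11-fold higher in eye, at 27.3 against 8.79 RPKM.

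Slc16a8 encodes MCT3, a proton-coupled lactate carrier of the basolateral membrane of the pigment epithelium. It stood at 52.7 RPKM in eye and 17.6 in retina, on 2659 and 1643 reads, a 2.99-fold difference (interval 2.81 to 3.19). The broadly expressed lactate carrier Slc16a1 (MCT1) was at 78.9 and 88.2 RPKM and was not called, as were Slc16a3 at 28.2 and 39.1 and Bsg (basigin), the chaperone that brings these carriers to the membrane, at 517 and 659. Within a library, Slc16a8 was therefore 0.668 times the level of Slc16a1 in eye (interval 0.638 to 0.700) and 0.200 times in retina (0.189 to 0.210), a 3.35-fold shift between libraries (3.12 to 3.59). Such a ratio within a library does not depend on how the libraries are scaled, although a ratio between genes depends on their gene models. Slc16a8 was not called with equal summed RPKM, where its log2 ratio was 0.94.

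Slc26a7, an anion exchanger and chloride channel of acid-base transport, stood at 8.22 RPKM in eye and 2.38 in retina, on 527 and 282 reads. It was 3.46-fold higher in eye (interval 2.99 to 4.01). Slc6a20 encodes SIT1, a sodium-coupled carrier of proline and other imino acids. It stood at 5.44 and 2.61 RPKM, on 149 and 132 reads, 2.09-fold higher in eye, and its interval (1.64 to 2.66) spans the 2-fold threshold. The call was lost with 1 RPKM added to each value (log2 ratio 0.84) and with equal summed RPKM (0.41). The reference table lists Slc6a20 as an older name of Slc6a20a, next to the gene Slc6a20b; how reads were shared between such copies was not given in the sources used here, which makes its value uncertain. In retina, Slc6a20 and Slc26a7 overlapped in their counting intervals, whereas in eye Slc26a7 was the higher.

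Trpm3 encodes a cation channel opened by heat and by neurosteroids, present in pigment epithelium, Mueller glia and other neural cells, and its intron carries the microRNA gene miR-204. It was at 17.0 RPKM in eye and 17.3 in retina, on 1561 and 2943 reads. The ratio of 0.981 had an interval (0.922 to 1.04) that includes 1, and its sign turned with totals without lens genes (log2 ratio 0.17) and with the median-of-ratios and trimmed-mean scalings. Under equal summed RPKM the log2 ratio of Trpm3 was -0.66. In retina its level overlapped that of Slc16a8; in eye Slc16a8 was higher.

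Best1 encodes bestrophin-1, a calcium-activated chloride channel of the basolateral membrane of the pigment epithelium. It was at 0.355 RPKM in eye (interval 0.217 to 0.548) and 0.470 in retina (0.348 to 0.621), on 20 and 49 reads. These levels sit at percentile 5.00 of all gene values in eye and 11.7 in retina, and Best1 lay below the minimum, so it was not tested. The ratio of eye to retina was 0.755 (interval 0.425 to 1.29), and no difference was detectable at this depth. Which exons of Best1 the gene model behind these values covers was not tested, and its level is uncertain to that extent. Rpe65, the retinoid isomerase of the same cells, was at 59.0 RPKM in eye and 16.0 in retina, 166 times and 34.0 times the level of Best1. Best2, a relative known from the ciliary epithelium, was also low, at 2.48 and 5.96 RPKM, with retina 2.40-fold higher (interval 1.84 to 3.17).

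Among the phagocytosis genes, the receptors lay in the middle of all gene values, between percentiles 42.1 and 49.8, and the bridging proteins near the top, above percentile 97.3 in both libraries. Mertk, the kinase receptor that triggers engulfment, was at 6.99 RPKM in eye and 5.78 in retina, on 593 and 908 reads. Eye was 1.21-fold higher (interval 1.09 to 1.34). Tyro3, a kinase receptor of the same family that is also expressed by neurons, was at 8.71 and 7.16 RPKM, on 911 and 1387 reads, and eye was 1.22-fold higher (1.12 to 1.32). Both receptors thus stood slightly higher in eye, by less than the 2-fold threshold, and both had the opposite sign with equal summed RPKM (log2 ratios -0.36 and -0.35). Mertk was 0.802 times the level of Tyro3 in eye (interval 0.722 to 0.891) and 0.807 times in retina (0.741 to 0.878), and these proportions differed between libraries by a factor of 0.994 (0.870 to 1.14).

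Gas6, the vitamin K-dependent ligand of all 3 receptors of the family, was at 123 RPKM in eye and 129 in retina, on 7183 and 13846 reads. The ratio was 0.960 (interval 0.933 to 0.988), and its sign turned with totals without lens genes (log2 ratio 0.14) and, by less, with the median-of-ratios and trimmed-mean scalings. Equal summed RPKM gave a log2 ratio of -0.70. Mfge8, lactadherin, the bridge to the integrin, was at 129 RPKM in eye and 156 in retina, on 7883 and 17611 reads. Retina was 1.21-fold higher (1.18 to 1.24), and the sign held under the 7 other scalings and added values. The size did not: the log2 ratio was -0.91 with equal summed RPKM and -0.08 with totals without lens genes. After Ttr, Mfge8 and then Gas6 were the most abundant members of both libraries. Gas6 was 17.7 times the level of Mertk in eye (interval 16.2 to 19.2) and 22.2 times in retina (20.8 to 23.8).

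The partners of these 4 genes that are not members did not all lie level. Axl, the remaining receptor of the family, was at 14.0 RPKM in eye and 3.31 in retina, 4.24-fold higher in eye (interval 3.79 to 4.74). Axl therefore stood at 2.01 times Mertk in eye (1.81 to 2.22) and 0.572 times Mertk in retina (0.510 to 0.641), so that the most abundant receptor of the family was Axl in eye and Tyro3 in retina. Pros1 (protein S), the other ligand of Mertk, was at 11.8 and 4.38 RPKM, 2.69-fold higher in eye (2.44 to 2.95). Gas6 exceeded Pros1 10.5 times in eye (9.84 to 11.2) and 29.4 times in retina (27.3 to 31.7). The integrin chains Itgav, at 13.4 and 9.57 RPKM, and Itgb5, at 38.3 and 29.4, were not called, with ratios of 1.40 and 1.30. Axl against Mertk and Tyro3 was compared after these values were seen. The ratios of Ttr to Rbp4, Gas6 to Mertk and Rpe65 to Best1 were not among the planned ratios either.

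**Figure D2:**
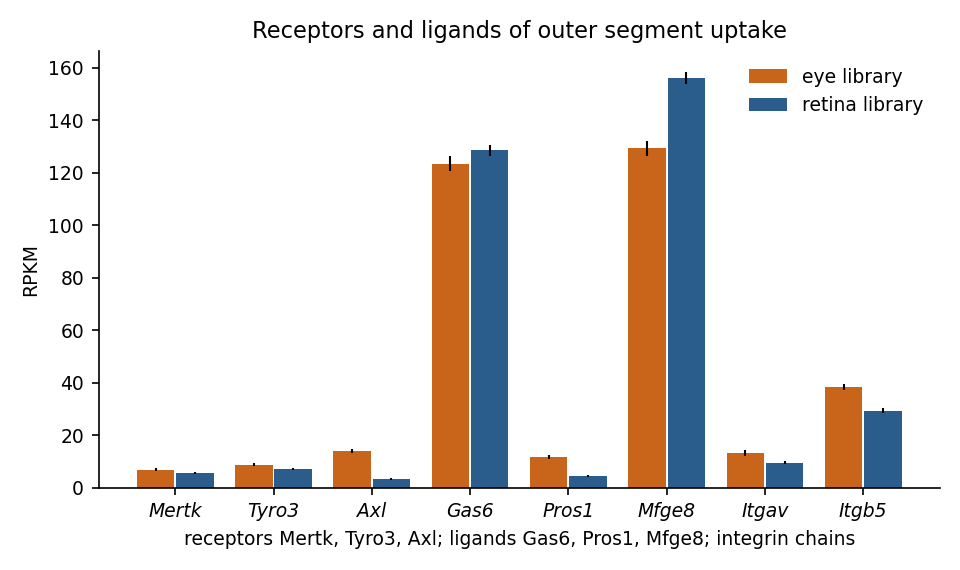
RPKM (bars from 0) in the eye library (orange) and the retina library (blue) of the receptors Mertk, Tyro3 and Axl, the ligands Gas6, Pros1 and Mfge8, and the integrin chains Itgav and Itgb5, with exact 95% counting intervals. Gas6 and Mfge8 stand above 120 in both libraries, while Axl and Pros1 are the pair with eye bars over 2-fold taller.

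The wider list of uptake genes went in both directions. Of 14 tested ligands, receptors and linkers other than the members, 5 were called higher in eye (Axl, Pros1, Cd36, Lgals3 and Anxa5) and 4 lower (Tulp1, Scarb1, Stab2 and Bai1), with a median log2 ratio of 0.53. Tulp1, a photoreceptor protein that also acts as a bridge to Mertk, was at 280 RPKM in eye and 736 in retina, with retina 2.63-fold higher (interval 2.58 to 2.68). Lgals3 (galectin-3), another bridge to Mertk and a product of macrophages and epithelia, was at 185 and 3.73 RPKM, 49.6-fold higher in eye (38.1 to 65.9). Anxa5, which binds phosphatidylserine, was 5.85-fold higher, at 120.0 against 20.5 RPKM. Cd36, a scavenger receptor, was at 1.33 RPKM in eye and 0.00755 in retina, where 1 read was found, and the ratio of 176 had an interval from 30.8 to 7015. Stab2, with values of 0.360 and 1.30 RPKM, had the lowest ratio of that list. Its values carried too few decimals for reads to be searched, so it has no interval.

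Genes that carry out engulfment and digestion inside the cell were counted in the same way. Of 29 tested, 7 were called higher in eye, 0 lower and 22 were not called, with a median log2 ratio of 0.24. Over all 13259 tested genes, 17.8% were called higher and 7.95% lower. Not all of those 22 lay level: at a fold of 1.5, 12 of the 29 were higher and 2 lower. At that fold 3521 of all 13259 tested genes were higher and 2910 lower. Anxa2, a membrane-binding protein of phagosomes and of many epithelia, was 14.3-fold higher, at 251 against 17.6 RPKM. Ctsl1 (cathepsin L), a lysosomal protease, was 3.43-fold higher, at 438 and 128 RPKM, while Ctsd (cathepsin D), at 203 and 165, was not called. Myo7a, the myosin that moves phagosomes and melanosomes, was low in both, at 1.36 and 0.577 RPKM, and 2.35-fold higher in eye. The kinase genes Ptk2, at 19.6 and 18.2 RPKM, and Src, at 16.6 and 25.6, act downstream of the integrin and of Mertk and were not called.

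Other transport genes of the pigment epithelium varied in direction. Of 35 tested, 11 were called higher in eye, 4 lower and 20 were not called, with a median log2 ratio of 0.06. Kcnj13, the potassium channel of the apical membrane, had the highest log2 ratio with 0.1 added: 36.5 RPKM in eye and 7.01 in retina, 5.20-fold (interval 4.67 to 5.80). Tf (transferrin) was 3.48-fold higher, at 568 and 163 RPKM. Abca4, the retinoid flippase of photoreceptor discs, had the lowest ratio, at 53.0 and 124 RPKM, with retina 2.33-fold higher. Ca2, a cytosolic carbonic anhydrase found also in Mueller glia, was at 238 and 277 RPKM and was not called. Of 11 tested relatives of Best1, Trpm3 and Slc26a7, 1 was called higher (Trpm4, at 1.34 and 0.508 RPKM) and 2 lower (Best2 and Trpm2), with a median log2 ratio of -0.34. Trpm1, the channel of ON bipolar cells, was at 47.8 and 68.2 RPKM and was not called.

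**Figure D3:**
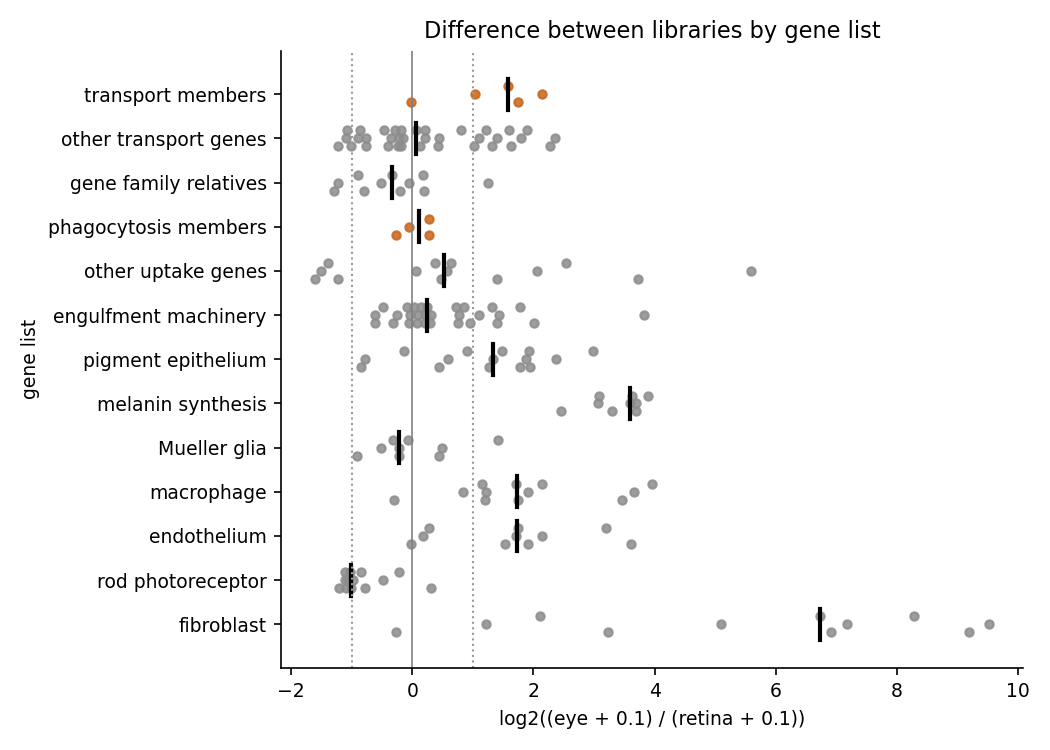
log2((eye + 0.1)/(retina + 0.1)) of each tested gene (points, vertical offset only for legibility) by gene list, with the list median as a black bar, members in orange and the 2-fold threshold as dotted lines. The median of the transport members (1.58) lies between that of the pigment epithelium list (1.33) and those of the macrophage and endothelium lists (both 1.73). That of the phagocytosis members (0.11) lies near 0.

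The members were set beside genes listed for the pigment epithelium and for other cells. Of 15 pigment epithelium genes, 9 were called higher in eye and 0 lower, with a median log2 ratio of 1.33, and their summed level was 837 RPKM in eye and 551 in retina. Lrat, which esterifies retinol, was 8.18-fold and Rpe65 3.69-fold higher, whereas Rlbp1 (145 and 159 RPKM), a retinoid-binding protein shared with Mueller glia, was not called. Relative to that median, the log2 ratio of Ttr lay 0.82 above, Slc26a7 0.42 above and Slc16a8 0.25 above. Slc6a20 lay below it (-0.29), as did Tyro3 (-1.05), Mertk (-1.06), Trpm3 (-1.35), Gas6 (-1.39) and Mfge8 (-1.60). All 9 melanin synthesis genes tested were higher, with a median of 3.60, and their sum was 1134 RPKM in eye and 99.9 in retina. No member came within 1 log2 unit of that median; Ttr, the nearest, was at -1.45 relative to it. Melanin genes are made both by this epithelium and by melanocytes of choroid and iris. In such bulk samples, fewer cells of a type and less RNA per cell cannot be told apart.

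Marker lists of other cells moved as well. Of 12 tested macrophage genes, 10 were higher in eye and 0 lower, with a median log2 ratio of 1.73. Their sums were 122 and 42.6 RPKM, and Cd68 was 19.6-fold higher. Fibroblast genes were higher in 10 of 11 cases, with a median of 6.72 and sums of 3583 and 361 RPKM. Endothelial genes were higher in 7 of 10 cases, with a median of 1.73 and sums of 146 and 64.8 RPKM. Ciliary body and iris genes were higher in 5 of 8 cases and lower in 1, with sums of 1124 and 92.1 RPKM. Corneal and conjunctival epithelium genes were higher in 13 of 14 cases, with sums of 5530 and 256 RPKM. Skeletal muscle genes were higher in 12 of 12 cases, with sums of 3602 and 13.8 RPKM. Mueller glia genes were called in 1 of 9 cases (Vim, higher in eye), with a median of -0.22 and sums of 2822 and 2263 RPKM. Rod genes were lower in 7 of 13 cases, with a median of -1.01; 1 was lower with totals without lens genes, 4 with the median-of-ratios or trimmed-mean scaling and 11 with equal summed RPKM. No marker of these lists was listed at 0 in either library. Their part in the values of the members, and in those of Axl, Pros1 and Lgals3, was not tested.

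**Figure D4:**
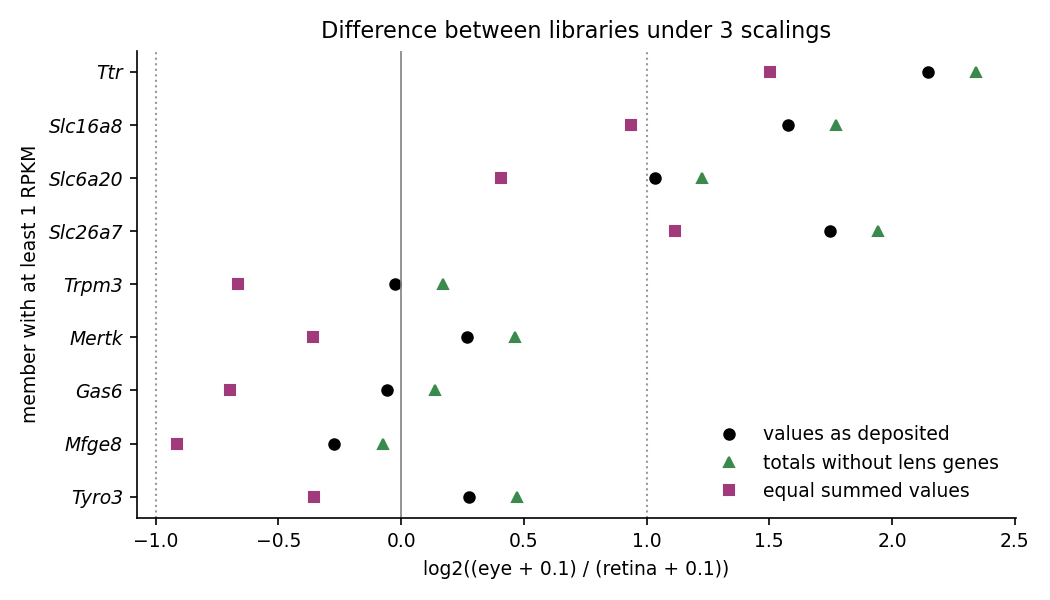
log2((eye + 0.1)/(retina + 0.1)) of the 9 tested members with RPKM as deposited (circles), with totals without lens genes (triangles) and with equal summed RPKM (squares); dotted lines mark 2-fold. Ttr, Slc16a8, Slc6a20 and Slc26a7 stay to the right of 0 under all 3 scalings shown, and Mertk, Tyro3, Gas6 and Trpm3 lie on both sides of it.

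Sequence upstream of the genes was compared between the role groups, since the choice of genes had not used it. RefSeq start sites of the rat assembly GRCr8 were matched for 9 of the 10 genes, Slc6a20 under Slc6a20a and Trpm3 with 2 starts. Slc26a7 had no match. In the 250 bases before the start, the GC box GGGCGG, a binding motif of Sp1-type factors, was searched on both strands. It was found in all 4 phagocytosis genes, with 2 matches in Mertk, 3 in Gas6, 3 in Mfge8 and 6 in Tyro3. In the 6 windows of the 5 matched transport genes it was found 0 times. Over all 33469 windows of that length, 30.5% held it. GC content was 68.0% for Mertk, 65.2% for Gas6, 66.0% for Mfge8 and 82.0% for Tyro3, against 59.2% for Best1, 57.2% for Slc16a8, 49.2% for Slc6a20 and 40.4% for Ttr, and 68.0% and 56.0% for the starts of Trpm3. The median over all windows was 51.2%. The motif shares its letters with GC-rich sequence in general, so both features describe much the same thing. CG dinucleotides numbered 22, 20, 12 and 41 in Mertk, Gas6, Mfge8 and Tyro3, and 1, 0, 10 and 3 in Best1, Slc16a8, Slc6a20 and Ttr. The starts of Trpm3 had 23 and 6, so that in CG count and GC content 1 transport window lay among those of the phagocytosis genes. The E-box letters CACGTG and CATGTG, searched for MITF-type factors, and TAATCC, searched for OTX-type factors, had no match in any member window. Of all windows, 5.59%, 12.1% and 6.34% held them. The TATA box letters TATAAA, also searched, had no match in any member window either, against 12.9% of all windows. That says only that these letters are absent from these stretches. The phagocytosis genes Mertk and Gas6 and the transport genes Slc16a8 and Best1 are shown as examples with and without a GC box, each read 5′ to 3′ in the direction of the gene, with GC boxes on either strand in capitals. Mertk lies on the + strand (chr3:136392324-136392573), Gas6 on the + strand (chr16:82747426-82747675), Slc16a8 on the - strand (chr7:112702497-112702746) and Best1 on the - strand (chr1:216070959-216071208).
Mertk: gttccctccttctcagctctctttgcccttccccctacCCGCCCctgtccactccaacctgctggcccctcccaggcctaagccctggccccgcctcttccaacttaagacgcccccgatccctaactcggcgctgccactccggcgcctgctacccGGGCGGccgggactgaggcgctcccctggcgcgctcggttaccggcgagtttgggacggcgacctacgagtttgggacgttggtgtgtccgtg
Gas6: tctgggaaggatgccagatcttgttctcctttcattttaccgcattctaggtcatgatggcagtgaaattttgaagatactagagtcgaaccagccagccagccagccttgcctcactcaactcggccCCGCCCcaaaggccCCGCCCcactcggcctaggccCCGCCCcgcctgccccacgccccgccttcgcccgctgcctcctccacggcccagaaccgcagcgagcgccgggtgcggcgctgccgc
Slc16a8: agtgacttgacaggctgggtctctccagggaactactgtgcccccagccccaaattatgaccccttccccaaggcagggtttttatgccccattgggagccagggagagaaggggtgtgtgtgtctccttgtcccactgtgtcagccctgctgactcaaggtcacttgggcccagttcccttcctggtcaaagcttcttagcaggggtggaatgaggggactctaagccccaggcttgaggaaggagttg
Best1: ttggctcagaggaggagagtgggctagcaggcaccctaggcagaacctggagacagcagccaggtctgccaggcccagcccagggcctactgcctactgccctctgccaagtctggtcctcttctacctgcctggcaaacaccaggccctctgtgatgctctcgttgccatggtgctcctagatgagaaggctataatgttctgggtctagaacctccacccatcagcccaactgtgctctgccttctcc

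With only 2 libraries, likeness of pattern reduces to likeness of the log2 ratio, and many genes shared each member's ratio. Within 0.1 log2 units of Ttr lay 139 of the 13259 tested genes, within 0.1 of Slc16a8 227, and within 0.1 of Gas6 1297. Among the listed genes the nearest to Ttr were Cdh5, an endothelial cadherin (8.18 and 1.77 RPKM), and Tyrobp, a myeloid signalling adaptor (13.9 and 3.07). The nearest to Slc16a8 were Rbp4 and Pecam1, and those to Slc26a7 were Tek and C1qc. Mertk and Tyro3 had the same nearest pair, Flt1 and Ctsd.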

How the data were processed

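RNA-seq values of 1 eye and 1 retina library were analysed, grouped by their titles, each from RNA of 5 pooled rats per the labels. The submitters' processing notes name the tools GSNAP and HTSeq and the build rn4; roles, versions, annotation and strand use were not given in the sources used here. Values the authors deposited are taken as RPKM, inferred from the values, since neither headers nor labels name the unit. Each table held 14533 rows; 7 with ND were dropped, and of 41 names on several rows the one with most decimals was kept. Python 3.11.15, numpy 2.4.6, pandas 2.3.3 and scipy 1.17.1 were used.

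Reads were worked back as the smallest whole numbers, over a whole length of 100 to 40000 bases, that give both values within rounding; 13760 of 13980 genes searched (98.4%) had them. True reads may be a multiple of these; the method was tested on simulated data. Folds of named genes are ratios of deposited values; calls used 0.1 added, a minimum of 1 RPKM in either library and a fold of 2. Intervals are Clopper-Pearson for ratios and exact Poisson for levels; those of a ratio of ratios use the log odds ratio, also at 95%. Without molecular identifiers, reads are not independent molecules, which intervals do not cover. Depth was 1.85 times higher in retina. No test between tissues was run, since each has 1 column. Named genes are the members and, of each other list, the 3 of highest mean and the highest and lowest ratio, plus Axl, Pros1, Itgav, Itgb5, Cd36, Best2 and Trpm1; others named were chosen after their values were seen. Not every gene under this rule is reported here. The members and the 17 gene lists were chosen with earlier results of these data known.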

Additional observations from a re-analysis of the deposited data

How the results depend on the processing

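No paired analysis was possible because 1 column of values per tissue was analysed, and for the same reason no replicate could be left out. The 4 members called higher were 2 with equal summed RPKM and 1 at a fold of 4, and 3 with 1 added. With equal summed RPKM the engulfment genes had 3 higher and 3 lower in place of 7 and 0, the other transport genes 4 and 10 in place of 11 and 4, and the family relatives 0 and 5 in place of 1 and 2. At a fold of 4, 0 uptake genes were lower in place of 4, 2 engulfment genes and 2 transport genes were higher, 0 transport genes were lower, and 0 relatives were called in either direction. At a fold of 1.5, 12 engulfment genes were higher and 2 lower, 8 transport genes were lower and 4 relatives were lower. Of all tested genes, 3521 were higher and 2910 lower at that fold. Lower transport genes numbered 1 with totals without lens genes and 2 with the median of ratios, with the trimmed mean or with 1 added. With 1 added, 0 relatives were higher and 1 lower, and with a minimum of 5, 0 were higher. These shifts follow from how each alternative is built: it moves the ratios, the threshold or the genes tested. Ratios between genes of 1 library are the same from RPKM and from reads per length by construction, since the reads were solved from the RPKM. Among the members, depth limits Best1 most, at 20 and 49 reads.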
